A study of Oryza sativa Japonica Group with 6 samples.

Results

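The genes described here are 5 genes of the auxin pathway measured in rice endosperm, the starch-storing tissue of the grain. They were taken by their locus identifiers from the table of expression values, which holds 29907 mRNA gene rows, and each of the 5 had a row. They are TAR1 (LOC_Os05g07720, on chromosome 5), YUC9 (LOC_Os01g16714, chromosome 1), YUC11 (LOC_Os12g08780, chromosome 12), YUC12 (LOC_Os02g17230, chromosome 2) and IAA29 (LOC_Os11g11430, chromosome 11). The chromosomes are those in the identifiers. The first 4 encode enzymes of auxin synthesis, whereas IAA29 encodes a protein of the auxin response, so the set is not one of synthesis genes alone.

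RNA came from the Japonica cultivar NingJing1, sampled 10 days after pollination. Plants grown in the field to booting were then kept in growth chambers at 36 °C in the day and 33 °C at night (high temperature, HT, n = 3 samples) or at 28 °C in the day and 25 °C at night (normal temperature, NT, n = 3 samples). The labels do not state whether replicate samples were taken from different plants, and the p-values therefore cover only the variation among the 6 samples, which may be technical. In such bulk tissue, fewer cells of a type and less RNA per cell cannot be told apart. Both groups were sampled at 10 days after pollination, and whether their grains had reached the same stage of development was not examined.

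Auxin, chiefly indole-3-acetic acid (IAA), is a plant hormone that the growing cereal grain makes in large amounts while the endosperm fills. In its main route, a tryptophan aminotransferase of the TAA/TAR family turns tryptophan into indole-3-pyruvate, and a flavin monooxygenase of the YUCCA (YUC) family turns that into IAA. IAA is then carried between cells, inactivated by conjugation or oxidation, or bound by TIR1/AFB receptors, which mark Aux/IAA repressors for breakdown and so free the ARF transcription factors. In rice, loss of YUC11 is known to give smaller and chalkier grains, and chalkiness of grain formed in heat is the trait that the series is about.

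Abundance was given as FPKM, fragments scaled to transcript length and to the library's mapped fragments, so that levels of different genes can be set side by side per length. The values summed to between 365035 and 380742 per sample, and sequencing depth is unknown because they are not read counts. The tissue label was checked against 6 endosperm markers, all of them abundant. The storage glutelin GLUA2 lay between 19733 and 20192 FPKM in HT samples and between 18361 and 18767 FPKM in NT samples, and the starch synthase GBSSI between 442 and 525 FPKM in HT samples and between 1347 and 1442 FPKM in NT samples. Markers of other grain tissues were measured too. The oleosin OLE16b lay between 649 and 679 FPKM in HT samples and between 74.3 and 569 FPKM in NT samples, and the dehydrin RAB16A between 142 and 162 FPKM in HT samples and between 25.8 and 28.4 FPKM in NT samples, whereas the embryo gene OSH1 was at or under 0.66 FPKM in all 6 samples. None of the 4 embryo and aleurone, 4 green pericarp and 1 nucellus markers found in the table was listed at 0 in every sample.

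Among the 5 genes, TAR1 rose in HT to 2.10 times its NT mean, YUC9 and YUC11 fell to 0.454 and 0.534 times theirs, and YUC12 and IAA29 did not pass the test. The test was limma on log2(FPKM + 1) over all 17050 mRNA genes with a mean of at least 0.5 FPKM, with Benjamini-Hochberg adjusted p under 0.05 as the threshold. In the same test 13.0% of all tested genes were higher and 22.8% were lower in HT, 35.8% in either direction, so calls in either direction were common among the tested genes. The share of calls that were higher was 36.4% on the deposited scale and 47.0% when samples were rescaled on all but the 100 most abundant genes. Fold changes on the log2(FPKM + 1) scale understate the change of low genes.

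TAR1 encodes the aminotransferase of the first step. It had 42.3, 44.1 and 45.3 FPKM in the HT samples, against 20.9, 22.8 and 19.2 FPKM in the NT samples. Every HT sample was high and every NT sample low, with no overlap of the groups, as was also the case for 51.7% of all tested genes. The means were 43.9 ± 1.54 FPKM in HT and 21.0 ± 1.77 FPKM in NT (SD, n = 3 each). The log2 fold change was 1.04 with a standard error of 0.071 (limma adjusted p = 0.000494). Among all mRNA rows, TAR1 stood above 97.5% to 97.7% of rows in HT samples and above 93.6% to 94.6% of rows in NT samples.

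YUC9, a flavin monooxygenase of the second step, went the other way. It had 13.4, 11.8 and 13.7 FPKM in the HT samples, against 31.9, 26.2 and 27.5 FPKM in the NT samples. The lowest NT sample lay well above the highest HT sample. With means of 12.9 ± 1.03 FPKM in HT and 28.5 ± 2.97 FPKM in NT (SD, n = 3 each), the log2 fold change was -1.08 with a standard error of 0.096 (limma adjusted p = 0.00104). Only 3.07% of tested genes had a lower log2 fold change than YUC9.

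YUC11, the YUCCA gene tied to chalkiness by its mutant, had 2.55, 2.56 and 2.27 FPKM in the HT samples, against 4.51, 4.20 and 5.11 FPKM in the NT samples. The groups again did not overlap, and the 3 HT samples were close together. Means were 2.46 ± 0.165 FPKM in HT and 4.61 ± 0.463 FPKM in NT (SD, n = 3 each). The log2 fold change was -0.69 with a standard error of 0.082 (limma adjusted p = 0.00251). On log2(FPKM + 0.1), where a low gene is less compressed, it was -0.88.

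YUC12, a further YUCCA gene, was the least abundant of the 5 and close to the minimum for testing. It had 0.70, 0.82 and 0.47 FPKM in the HT samples, against 0.51, 0.96 and 0.60 FPKM in the NT samples. High and low samples occurred in both groups, and the groups overlapped fully. The log2 fold change was -0.019, with a 95% interval from -0.37 to 0.33 (limma adjusted p = 0.931). The spread between samples was wide, 26.8% of the mean in HT and 34.5% in NT, against 3.5% in HT and 8.43% in NT for TAR1. No change and a change inside that interval therefore cannot be told apart here.

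IAA29, a gene of the Aux/IAA family, had 12.5, 12.6 and 11.9 FPKM in the HT samples, against 10.4, 12.2 and 10.9 FPKM in the NT samples. Whether its protein is broken down through TIR1/AFB receptors was not examined here. Normal temperature sample 2 lay within the range of the HT samples, and the other NT samples lay below all of them. The log2 fold change was 0.13, with a 95% interval from -0.043 to 0.31 (limma adjusted p = 0.201). After quantile normalization it was 0.24 and passed (limma adjusted p = 0.0492). The genes with the neighbouring locus numbers, IAA27 and IAA28, were at or under 0.32 FPKM in every sample, and whether reads were split between these loci was not examined.

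**Figure D1:**
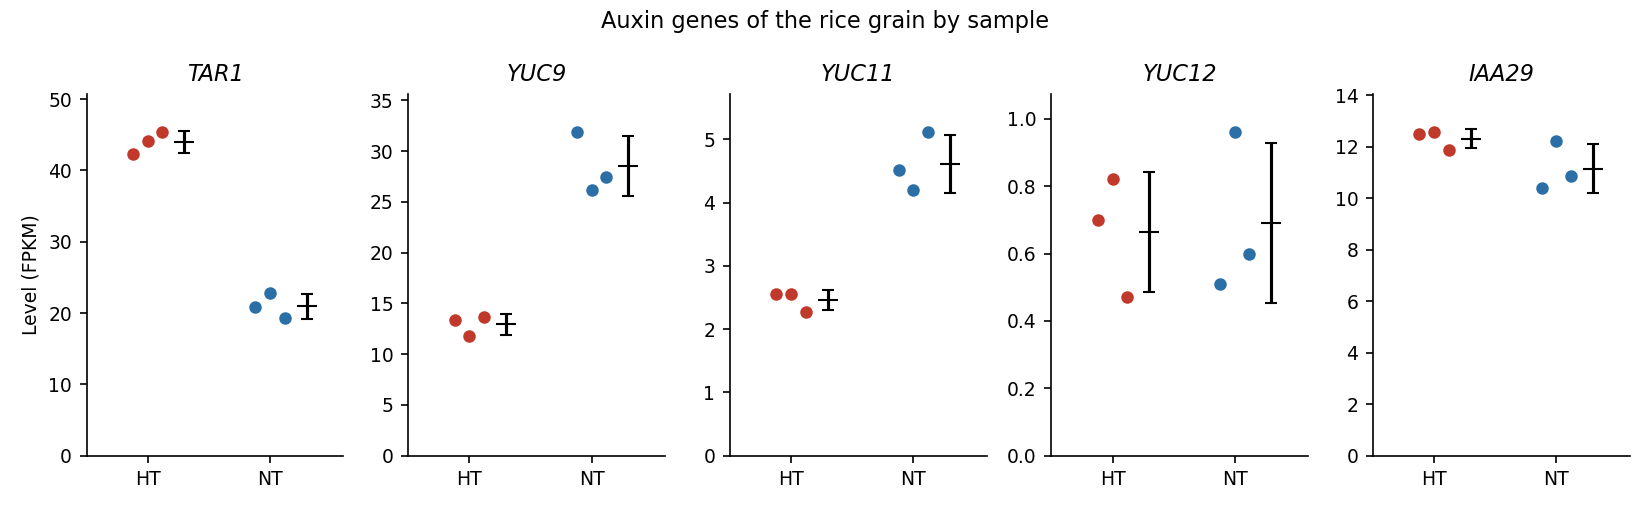
Level in FPKM (vertical axis, from 0, scaled for each gene) of TAR1, YUC9, YUC11, YUC12 and IAA29 in each HT sample (red, left) and NT sample (blue, right), with the mean and SD of the 3 samples in black beside the points. The groups are apart for TAR1 (higher in HT), YUC9 and YUC11 (both lower in HT), and overlap for YUC12 and IAA29.

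The order of the levels differed between the temperatures at its upper end. In HT, TAR1 came first, followed by YUC9 and IAA29, whose samples overlapped (lowest YUC9 sample 11.8 FPKM, highest IAA29 sample 12.6 FPKM), then YUC11 and YUC12. In NT, YUC9 came first and TAR1 next, with no overlap (lowest YUC9 sample 26.2 FPKM, highest TAR1 sample 22.8 FPKM), then IAA29, YUC11 and YUC12. Between YUC9 and TAR1 the ratio within a sample was 0.316, 0.266 and 0.302 in the HT samples and 1.53, 1.15 and 1.43 in the NT samples. This ratio does not depend on how samples are scaled. It was below 1 in each HT sample and above 1 in each NT sample (exact permutation test, two-sided, p = 0.1, which is the smallest p that 3 samples against 3 allow, and 0.14 after Benjamini-Hochberg adjustment over 7 such ratios, sums and shares).

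The other aminotransferase gene in the synthesis list, FIB (LOC_Os01g07500), moved against TAR1. FIB catalyses the same step and had 6.96, 7.68 and 7.39 FPKM in the HT samples, against 19.2, 19.6 and 19.2 FPKM in the NT samples. All HT samples were low and the NT samples were nearly equal to each other. The log2 fold change of FIB was -1.29 with a standard error of 0.050 (limma adjusted p = 9.22e-05). TAR1 was 5.99 ± 0.209 times as abundant as FIB in HT and 1.08 ± 0.0802 times as abundant in NT (SD, n = 3 each), with no overlap (exact permutation test, two-sided, p = 0.1, adjusted p = 0.14). Summed, TAR1 and FIB had 49.3, 51.8 and 52.7 FPKM in the HT samples and 40.1, 42.4 and 38.4 FPKM in the NT samples. The sum was higher in every HT sample (exact permutation test, two-sided, p = 0.1, adjusted p = 0.14). Any other genes of the TAA/TAR family were not listed and are not in this sum.

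At the YUCCA step, the summed level of the YUC genes with a row was lower in every HT sample. YUC2 and YUC13 had no matched row and are not in the sum. The 12 YUC genes with a row summed to 20.3, 19.1 and 20.0 FPKM in the HT samples, against 42.1, 36.5 and 37.9 FPKM in the NT samples, and the groups did not overlap (exact permutation test, two-sided, p = 0.1, adjusted p = 0.14). YUC9 made up most of that sum in both groups, 65.3% ± 3.42 in HT and 73.3% ± 2.07 in NT (SD, n = 3 each). Its share was between 61.7% and 68.5% in HT samples and between 71.8% and 75.7% in NT samples, without overlap (exact permutation test, two-sided, p = 0.1, adjusted p = 0.14). YUC11 held 12.5% ± 1.04 of it in HT and 11.9% ± 1.42 in NT, a share that overlapped between the groups (exact permutation test, p = 0.8). Likewise the ratio of YUC9 to YUC11 was 5.29 ± 0.720 in HT and 6.23 ± 0.843 in NT and overlapped (exact permutation test, p = 0.2, adjusted p = 0.233). With 3 samples against 3, this test cannot pass the threshold for any difference, so it does not show that the genes fell alike.

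Of the 10 further synthesis genes with a row, 3 reached the minimum mean, and of these FIB and YUC3 fell and YUC8 did not pass. Over all tested genes, 22.8% were lower and 13.0% higher. YUC3 (LOC_Os01g53200) had 1.41, 1.67 and 1.64 FPKM in the HT samples, against 2.92, 2.67 and 2.68 FPKM in the NT samples, a log2 fold change of -0.55 (limma adjusted p = 0.0031). YUC8 had 1.02 ± 0.148 FPKM in HT and 1.24 ± 0.127 FPKM in NT (SD, n = 3 each). The 7 genes under the minimum, YUC1, YUC4, YUC5, YUC6, YUC7, YUC10 and YUC14, stayed at or under 0.74 FPKM in each sample. YUC14 was listed at 0 in all 6 samples, which can be a failed estimate. YUC5 had 0.27, 0.36 and 0.14 FPKM in HT samples and 0.03, 0.04 and 0.06 FPKM in NT samples. YUC4 had 0.17, 0.12 and 0.11 FPKM in HT samples and 0.05, 0.03 and 0.03 FPKM in NT samples. YUC4 and YUC5 were picked on their values and were not tested. In YUC1, YUC6, YUC7 and YUC10 the groups overlapped.

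**Figure D2:**
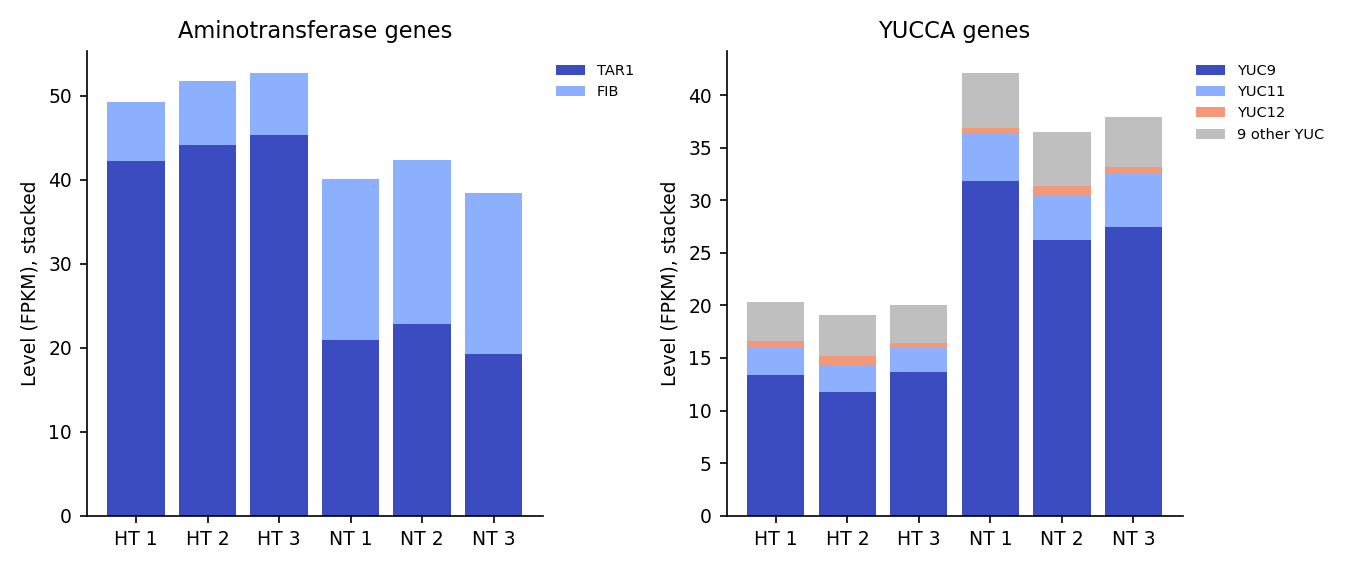
Levels in FPKM, stacked, of the aminotransferase genes TAR1 and FIB (left) and of the 12 YUC genes (right; YUC9, YUC11, YUC12 and 9 others summed) in each sample. The aminotransferase bars are somewhat taller in HT and mostly TAR1, and the YUC bars of HT samples (19.1 to 20.3 FPKM) are all lower than those of NT samples (36.5 to 42.1 FPKM).

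Upstream of these steps, OASA1 (LOC_Os03g61120), an anthranilate synthase subunit of tryptophan synthesis, had 39.5, 32.4 and 33.4 FPKM in the HT samples, against 23.7, 28.7 and 24.7 FPKM in the NT samples. All HT samples were above all NT samples, and OASA1 rose with a log2 fold change of 0.44 (limma adjusted p = 0.028). That call was lost without HT sample 1 or 3 or NT sample 1 or 3, with limma adjusted p between 0.0595 and 0.0852. OASB1, a subunit of the same enzyme, had 2.78 ± 0.153 FPKM in HT and 2.61 ± 0.498 FPKM in NT (SD, n = 3 each) and did not pass (limma adjusted p = 0.643).

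**Figure D3:**
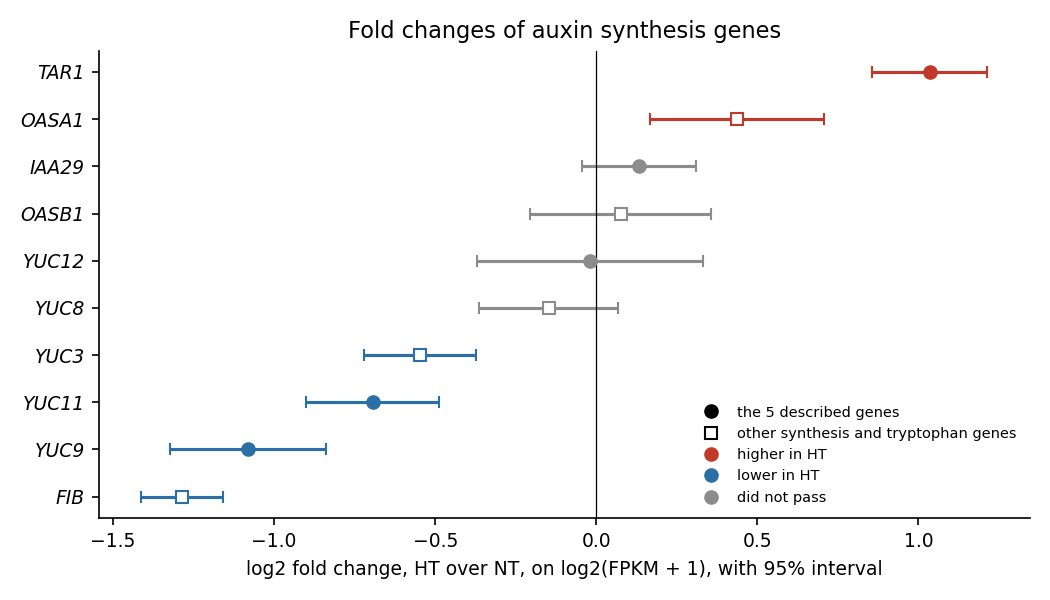
Log2 fold change, HT over NT, on log2(FPKM + 1) with its 95% interval from limma (horizontal axis) for each tested gene of the set (filled circles) and of the other synthesis and tryptophan lists (open squares). Colour marks genes higher in HT (red), lower in HT (blue) or not passing the test (grey); TAR1 at 1.04 and FIB at -1.29 lie at the ends.

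The inactivation list holds the GH3 family and the IAA oxidase DAO. Of 14 listed genes, 9 were tested, of which 5 fell, none rose and 4 did not pass. By share, 55.6% of the tested genes of the list were lower and 0.0% higher, beside 22.8% and 13.0% of all tested genes. The median log2 fold change was -0.52, beside -0.08 over all tested genes. GH3 enzymes join hormones to amino acids, and not every GH3 acts on IAA: GH3.5 of rice conjugates jasmonate. GH3.8 (LOC_Os07g40290), which conjugates IAA and was the most abundant, had 56.7 ± 2.31 FPKM in HT and 66.1 ± 1.54 FPKM in NT (SD, n = 3 each). Its log2 fold change of -0.22 passed on the deposited scale (limma adjusted p = 0.015) but not after quantile normalization (limma adjusted p = 0.19) or when samples were rescaled on all but the 100 most abundant genes (limma adjusted p = 0.103). GH3.7 and GH3.5 fell by 0.61 and 0.49 on the log2 scale. DAO had 17.3, 17.0 and 16.2 FPKM in the HT samples, against 12.3, 15.7 and 9.70 FPKM in the NT samples. All HT samples of DAO were above all NT samples, but it did not pass (log2 fold change 0.42, limma adjusted p = 0.109), except as higher without NT sample 2 (limma adjusted p = 0.0239).

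GH3.2 (LOC_Os01g55940), another IAA-conjugating enzyme, had 0.64, 0.54 and 0.71 FPKM in the HT samples, against 1.70, 6.78 and 6.38 FPKM in the NT samples. NT sample 1 stood apart from the other NT samples but was still above every HT sample. The log2 fold change of -1.72 was the lowest in the list (limma adjusted p = 0.0302), and the call was lost on leaving out any of the 6 samples except NT sample 1 (limma adjusted p between 0.0777 and 0.0889). GH3.3, a family member whose substrate was not examined here, fell by 0.81 (limma adjusted p = 0.0176). Its call was lost without any 1 of the HT samples (limma adjusted p between 0.0529 and 0.0573).

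Transport genes changed in both directions. Of 17 listed genes, 9 were tested, of which 2 rose, 3 fell and 4 did not pass. The shares were 22.2% higher and 33.3% lower, beside 13.0% and 22.8% of all tested genes. The median log2 fold change was -0.40. The influx carrier AUX1 (LOC_Os01g63770) had 1.83, 1.44 and 1.24 FPKM in the HT samples, against 4.85, 5.74 and 4.55 FPKM in the NT samples. All HT samples were low, and AUX1 fell with a log2 fold change of -1.27 (limma adjusted p = 0.00129). AUX2, an influx carrier with the highest mean of the list over all 6 samples, fell by 0.48 on the log2 scale. PIN5b, a carrier of the efflux family, fell by 0.56. The efflux carrier PIN9 was low in both groups and rose, with 1.14 ± 0.139 FPKM in HT and 0.517 ± 0.0981 FPKM in NT (SD, n = 3 each; log2 fold change 0.50, limma adjusted p = 0.0091). The other gene that rose, PIN1a, had 0.64, 0.76 and 0.92 FPKM in the HT samples, against 0.40, 0.45 and 0.34 FPKM in the NT samples. Its call (limma adjusted p = 0.032) was lost without any 1 sample other than HT sample 1 (limma adjusted p between 0.0548 and 0.0839) and after quantile normalization (limma adjusted p = 0.051), which leaves PIN9 as the 1 rise.

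Of 4 tested receptor genes, 1 rose, 2 fell and 1 did not pass. That is 25.0% higher and 50.0% lower, beside 13.0% and 22.8% of all tested genes. TIR1 (LOC_Os05g05800) had 10.7, 10.4 and 10.5 FPKM in the HT samples, against 8.01, 7.67 and 6.99 FPKM in the NT samples, and rose with a log2 fold change of 0.43 (limma adjusted p = 0.00446). AFB2 (LOC_Os04g32460), the most abundant receptor gene, had 25.3, 25.4 and 24.2 FPKM in the HT samples, against 30.2, 29.7 and 30.7 FPKM in the NT samples, and fell with a log2 fold change of -0.27 (limma adjusted p = 0.00575) that did not pass after quantile normalization (limma adjusted p = 0.0524). AFB5 fell by 0.77 on the log2 scale (limma adjusted p = 0.0152), a call lost without HT sample 3 (limma adjusted p = 0.0504). AFB4 did not pass, and the median of the 4 tested receptors was -0.17.

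Among the other Aux/IAA genes, the family of IAA29, 20 of 30 listed were tested. Of these 20 genes, 2 rose, 7 fell and 11 did not pass, beside 13.0% higher and 22.8% lower among all tested genes. The median log2 fold change was -0.18, beside -0.08 over all tested genes. IAA10 (LOC_Os02g57250), the most abundant, had 23.5, 14.2 and 24.5 FPKM in the HT samples, against 60.8, 52.6 and 34.3 FPKM in the NT samples. Each group was spread widely without overlap, and the log2 fold change was -1.21 (limma adjusted p = 0.028). The call of IAA10 was lost without HT sample 1 or 2 or NT sample 1 or 2 (limma adjusted p between 0.0565 and 0.0849). IAA17 fell by 1.17 on the log2 scale, a call lost without HT sample 2 or any 1 of the NT samples (limma adjusted p between 0.0748 and 0.0846), and IAA30 by 0.92, lost without any 1 sample other than NT sample 2 (limma adjusted p between 0.0621 and 0.0912). IAA8 fell by 1.03 on the log2 scale (limma adjusted p = 0.00313).

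Of 25 ARF genes, 24 were tested, of which 3 rose, 7 fell and 14 did not pass, with a median log2 fold change of -0.14. ARF1 (LOC_Os01g13520) had 10.4, 9.96 and 9.37 FPKM in the HT samples, against 27.7, 26.0 and 27.3 FPKM in the NT samples. All HT samples were low, and ARF1 fell with a log2 fold change of -1.36 (limma adjusted p = 9.87e-05). ARF25 fell by 0.73 and ARF5 by 0.64 on the log2 scale, whereas ARF2 rose by 0.74. ARF24, the most abundant, had 57.6, 47.9 and 58.6 FPKM in the HT samples and 70.7, 69.9 and 60.0 FPKM in the NT samples and did not pass (limma adjusted p = 0.0936). Over the 7 pathway lists together, 9 of 71 tested genes (12.7%) were higher and 26 (36.6%) were lower in HT, beside 13.0% and 22.8% of all tested genes.

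**Figure D4:**
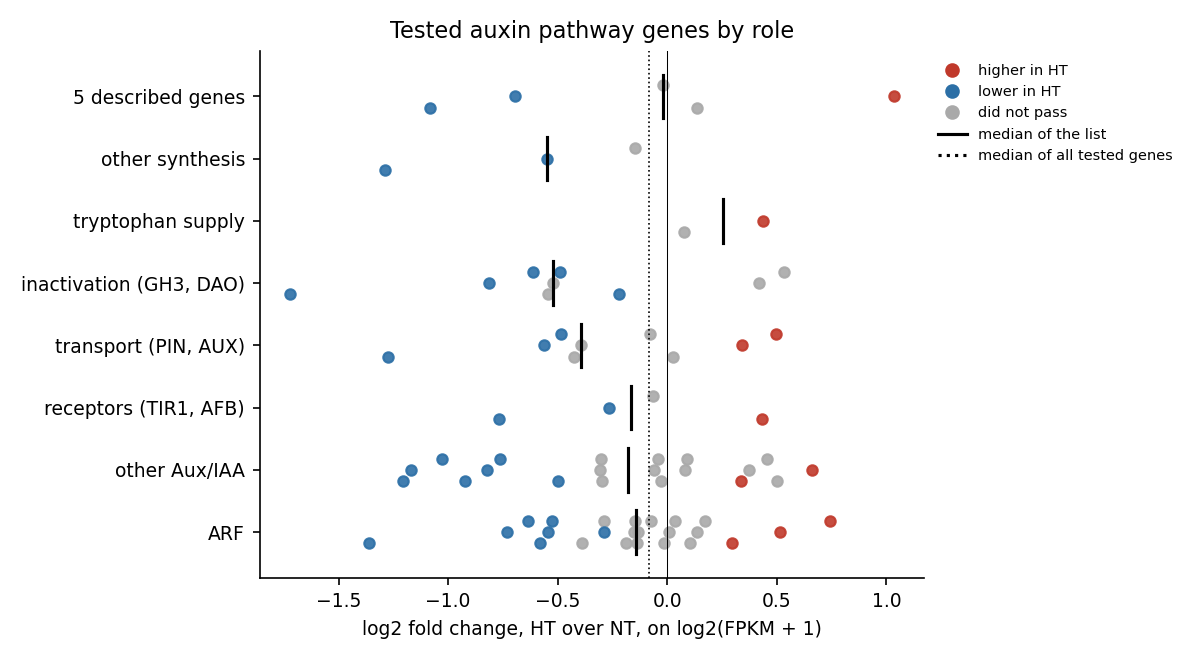
Log2 fold change, HT over NT, on log2(FPKM + 1) (horizontal axis) of each tested gene of the auxin pathway, 1 point per gene, by role (rows); colours mark genes higher in HT (red), lower in HT (blue) or not passing (grey), the bar is the median of the list and the dotted line the median of all tested genes (-0.08). TAR1 is the rightmost point of the plot at 1.04, and every role except tryptophan supply and the 5 described genes has its median to the left of the dotted line.

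Transcription factors of the endosperm were measured beside these genes. In rice, NF-YB1 is known to activate YUC11. NF-YB1 had 14.9, 7.37 and 14.9 FPKM in the HT samples, against 12.7, 10.7 and 9.55 FPKM in the NT samples, and did not pass (limma adjusted p = 0.8). HT sample 2 was the lowest of all 6 samples, and the groups overlapped. NF-YC12, RPBF and NAC26 fell by 0.80, 0.70 and 0.56 on the log2 scale. bZIP58 did not pass, except as higher without NT sample 3 (limma adjusted p = 0.0208). Thus 3 of 5 tested regulators fell and none rose, beside 22.8% lower and 13.0% higher among all tested genes.

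By Pearson correlation of log2(FPKM + 1) over the 6 samples, the listed genes most like TAR1 were RAB16A, a dehydrin of embryo and aleurone (r = 0.993), and ARF2 (r = 0.989). YUC9 was most like the starch synthase GBSSI and the light-harvesting gene CAB2R (r = 0.994 for each), and YUC11 most like IAA7 (r = 0.998) and AFB2 (r = 0.993). For YUC12 the closest were IAA15 (r = 0.791) and PIN1b (r = 0.67), and for IAA29 the oleosin OLE16b (r = 0.918) and OASA1 (r = 0.861). The correlations were taken over 95 other tested genes of the lists, describe these 6 samples, which fall into 2 temperature groups, and carry no test.

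Some markers of other grain tissues also differed between HT and NT, and others did not pass. Among all tested genes, 13.0% were higher and 22.8% lower in HT. Of 4 tested embryo and aleurone markers, 2 rose, RAB16A (150 ± 10.8 FPKM in HT and 27.1 ± 1.26 FPKM in NT, SD, n = 3 each) and VP1 (14.9 ± 0.188 FPKM in HT and 13.3 ± 0.289 FPKM in NT), while OLE16b and OSH1 did not pass. OLE16b had 649, 656 and 679 FPKM in the HT samples, against 112, 569 and 74.3 FPKM in the NT samples, and passed without NT sample 2 (limma adjusted p = 0.00226). The rise of VP1 did not pass without any 1 of the 6 samples (limma adjusted p between 0.0665 and 0.0951). Their summed level ranged from 806 to 841 FPKM in HT samples and from 114 to 612 FPKM in NT samples. Of 4 green pericarp markers, CAB2R fell to 35.9 ± 2.78 FPKM in HT, against 74.1 ± 3.65 FPKM in NT, and the other 3 did not pass, of which CAB1R passed as lower without NT sample 3 (limma adjusted p = 0.0367). The summed level of these 4 ranged from 87.2 to 118 FPKM in HT samples and from 128 to 158 FPKM in NT samples. The nucellus marker MADS29 had 4.91 ± 0.284 FPKM in HT and 5.17 ± 0.377 FPKM in NT and did not pass. Of the 6 endosperm markers, GLUA2 and GLUB1 rose, with log2 fold changes of 0.11 and 0.86. GBSSI, BEIIb, BT1 and PPDKB fell, with log2 fold changes of -1.49, -1.93, -2.13 and -2.11. After quantile normalization GLUA2 had a log2 fold change of -0.054 and did not pass (limma adjusted p = 0.487). The part of the tissue markers in the changes of the 5 auxin genes was not tested.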

How the data were processed

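Endosperm RNA of 6 samples was depleted of ribosomal RNA and read from both ends by Illumina HiSeq sequencing, per the labels' protocols. Expression was deposited by the authors as FPKM, per the file headers, with 2 decimals. Tools listed without their roles in the submitters' processing notes are StringTie 1.3.0, HISAT2 2.0.4, FastQC 0.10.1 and cutadapt 1.10. The sources used here do not give the genome build, the annotation or the strand setting.

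Groups follow the treatment label. The fit was limma 3.58.1 in R 4.3.3 on log2(FPKM + 1) with a trend on the mean, two-sided, over all mRNA rows with a mean of at least 0.5 FPKM, with Benjamini-Hochberg adjustment at 0.05 and no replicate block. The scripts were tested on simulated data. Ratios and sums were compared with exact permutation tests.

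The genes and lists were chosen with earlier results of these data known. Named genes are the 5 members, up to 4 called genes per list with the largest change, the most abundant gene of each list and the closest by correlation. All other genes in the text, among them DAO, PIN1a, NF-YB1, bZIP58, OASB1, AFB4, IAA27, IAA28, the remaining YUC genes and the tissue markers, were named besides these, DAO and PIN1a after their values were seen. Symbols were paired with identifiers by hand from rice nomenclature. Of 132, 71 were found once in the RefSeq table (assembly ASM3414082v1), all on the chromosome of the identifier, IAA29 and FIB among them; TAR1, YUC9, YUC11 and YUC12 were not checked by it. OASA2 lay out of order and was left out, after which all 272 pairs on a chromosome were in order. For 5 symbols no row was matched.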

Additional observations from a re-analysis of the deposited data

How the results depend on the processing

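TAR1, YUC9 and YUC11 kept their direction and passed the test under every setting tried: another pseudocount, other minimum means, trimmed-mean scaling, quantile normalization, rescaling without the 100 most abundant genes, a replicate block and leaving out each sample. Without single samples the log2 fold change lay between 0.98 and 1.09 for TAR1, between -1.14 and -1.0 for YUC9 and between -0.75 and -0.63 for YUC11. YUC12 did not pass under any setting; its log2 fold change of -0.019 turned to 0.0073 after trimmed-mean scaling and to 0.021 when rescaled on all but the 100 most abundant genes, and lay between -0.096 and 0.092 without single samples. It had no value at a minimum mean of 1 FPKM, which it did not reach. IAA29 passed only after quantile normalization, with a log2 fold change of 0.24, and its adjusted p lay between 0.0492 and 0.406 over all alternatives. Counts of genes called, over all mRNA genes and over the auxin lists, stayed within 1.5 times of the deposited-scale count under every setting. Sample numbers gave no sign of pairing: deviations from the group means correlated at -0.017, -0.003 and 0.004 between samples of the same number. These correlations cannot show whether samples of the same number were grown or handled together. With the replicate block, 6 auxin list genes were higher and 18 lower, against 9 and 26 without it, and limma adjusted p was 0.0117 for TAR1, 0.0103 for YUC9 and 0.0273 for YUC11. Of the listed genes named in the text, OASA1, GH3.2, GH3.8, PIN1a, PIN5b, AUX2, AFB5, IAA10, IAA30 and VP1 did not pass with the block (limma adjusted p between 0.0504 and 0.0981). Depth is unknown, so no limit of detection could be set for YUC12 and the other genes under 1 FPKM.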
